A study of Mus musculus with 24 samples.

Results

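The MAP kinase phosphatases described here are Dusp1, Dusp2, Dusp4, Dusp5, Dusp6, Dusp8, Dusp10 and Dusp16, 8 of the 22165 genes in the deposited count table. They were picked by gene symbol, and the choice uses no measured value itself, but it was made with results of these data in view, so the number of members past a threshold is not independent evidence. All 8 were counted in enough libraries to be tested. The libraries came from bone marrow-derived macrophages (BMDMs) of WT and Irg1-/- mice, both C57BL/6N and 8 to 20 weeks old, grown from marrow for 7 days with M-CSF. Irg1, listed as Acod1 in the annotation, encodes the enzyme that makes itaconate. There were 4 treatments: none (Unstim.), a mock phase, a medium change with 1 h of rest and 100 ng/ml LPS during 3 h (LPS 3h, the non-tolerized cells), the same dose during 24 h and harvest straight after it (LPS 24h), and 24 h of LPS, a medium change with 1 h of rest and a second dose during 3 h (LPS 24h->LPS 3h, the tolerized cells). With 3 cultures in each of the 8 groups, 24 libraries were counted. The WT mice were bought in and are not described as littermates of the Irg1-/- mice, and the medium change and rest of LPS 3h and restimulated cells are not described for Unstim. and LPS 24h cells, so in comparisons between these the handling and the LPS cannot be told apart.

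Dual-specificity MAP kinase phosphatases remove phosphate from both the threonine and the tyrosine in the activation loop of ERK, JNK and p38, and so switch these kinases off. In macrophages, Toll-like receptor 4 activates each of these kinase families within minutes of LPS, and several of the phosphatases are themselves made in response, which gives the pathway its negative feedback. Members differ in where they act and in what they bind: DUSP1, DUSP2, DUSP4 and DUSP5 are inducible nuclear enzymes, DUSP6 is cytoplasmic and selective for ERK, and DUSP8, DUSP10 and DUSP16 act mainly on JNK and p38.

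In the GRCm38 annotation (GENCODE M21) all 8 are protein-coding genes. Dusp1 (ENSMUSG00000024190.6 in the table) lies on chromosome 17 from 26505590 to 26562128 on the minus strand, Dusp2 (ENSMUSG00000027368.6) on chromosome 2 from 127336159 to 127338376 on the plus strand, Dusp4 (ENSMUSG00000031530.6) on chromosome 8 from 34807297 to 34819894 on the plus strand, and Dusp5 (ENSMUSG00000034765.6) on chromosome 19 from 53529109 to 53542431 on the plus strand. Dusp6 (ENSMUSG00000019960.7) lies on chromosome 10 from 99263231 to 99267489 on the plus strand, Dusp8 (ENSMUSG00000037887.11) on chromosome 7 from 142079490 to 142095843 on the minus strand, Dusp10 (ENSMUSG00000039384.8) on chromosome 1 from 184013302 to 184075636 on the plus strand, and Dusp16 (ENSMUSG00000030203.17) on chromosome 6 from 134715468 to 134792625 on the minus strand. The model of Dusp1 overlaps Ergic1 and Gm8225, and that of Dusp10 overlaps 1700056E22Rik, each on the opposite strand and each in the table. The overlap with Ergic1 runs from 26561489 to 26562128, at the 5′ ends of both models, whereas the libraries sequence transcript 3′ ends. Gm8225 and 1700056E22Rik lie wholly inside the models of Dusp1 and Dusp10. The strand setting of the counting is not given in the sources used here, so reads that fall in the shared stretches cannot be told apart.

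Promoter sequences are shown for 4 members whose levels moved most or differed between the genotypes: Dusp2 and Dusp16, which had the largest responses to LPS 3h, and Dusp1 and Dusp5, which were lower in Irg1-/- than in WT cells after LPS 24h. The sequences are from RefSeq (GRCm38.p6), in which 7 of the 8 members had an entry and Dusp4 had none. Each window holds up to 250 bases before the RefSeq start, written 5′ to 3′ on the strand of the gene and without bases that GENCODE M21 places in an exon of that strand. This left out bases next to the start for Dusp1 (203 shown) and Dusp5 (214 shown). The Dusp1 window lies inside the longer GENCODE model given above. The Dusp1 window is chr17:26508520-26508722 (minus strand), the Dusp2 window is chr2:127335909-127336158 (plus strand), the Dusp5 window is chr19:53528895-53529108 (plus strand), and the Dusp16 window is chr6:134792629-134792878 (minus strand). Capitals mark matches to the cAMP response element, to its shorter form TGACG and to the CArG box bound by serum response factor.
Dusp1: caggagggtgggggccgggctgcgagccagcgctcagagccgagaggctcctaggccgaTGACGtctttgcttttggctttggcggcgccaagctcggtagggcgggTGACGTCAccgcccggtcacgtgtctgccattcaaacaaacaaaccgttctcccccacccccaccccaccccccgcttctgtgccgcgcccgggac
Dusp2: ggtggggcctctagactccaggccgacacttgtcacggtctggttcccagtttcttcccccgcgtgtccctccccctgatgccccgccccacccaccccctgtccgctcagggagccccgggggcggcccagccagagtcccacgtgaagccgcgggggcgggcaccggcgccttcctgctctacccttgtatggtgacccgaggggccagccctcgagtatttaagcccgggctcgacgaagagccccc
Dusp5: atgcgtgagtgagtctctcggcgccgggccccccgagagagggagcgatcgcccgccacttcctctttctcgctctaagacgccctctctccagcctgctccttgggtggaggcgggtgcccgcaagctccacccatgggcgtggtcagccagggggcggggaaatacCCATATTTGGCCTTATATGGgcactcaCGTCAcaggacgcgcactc
Dusp16: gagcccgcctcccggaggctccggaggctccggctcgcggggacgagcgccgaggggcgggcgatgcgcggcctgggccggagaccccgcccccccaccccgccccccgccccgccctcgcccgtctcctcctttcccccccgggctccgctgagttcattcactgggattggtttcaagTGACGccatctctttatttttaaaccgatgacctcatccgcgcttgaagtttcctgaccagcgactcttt

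The windows were searched on both strands for TGACGTCA (the cAMP response element), TGACG (its shorter form, which every TGACGTCA also contains), TGANTCA (the AP-1 site), TATAAA, the kappaB site and the CArG box. The search covered all 250 bases, also those not shown, and distances are counted from the RefSeq start. Dusp1 held TGACGTCA from 143 to 136 bases before the start and a separate TGACG from 191 to 187 bases before it. Dusp8, whose sequence is not shown, held TGACGTCA at 107 to 100 and at 63 to 56 bases before the start. Of all 32851 promoter windows of 250 bases, 1.55% held TGACGTCA. Dusp5 held 2 adjoining CArG boxes, from 82 to 73 and from 72 to 63 bases before the start, and TGACG from 55 to 51, and 1.47% of all windows held a CArG box. Dusp16 held TGACG from 70 to 66 bases before the start, a motif in 17.8% of all windows. Dusp2, Dusp6 and Dusp10 held no match to any of these motifs. No member window held the AP-1 site, the kappaB site or TATAAA, which were in 6.75%, 7.25% and 12.4% of all windows. A match is a string of letters and was not tested as a binding site.

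The authors deposited reads counted on each gene from a method that sequences transcript 3′ ends. Between 3927378 and 20430359 reads were counted on genes per library, and counts are given below as normalized CPM, counts per unit of library size as edgeR's cpm function scales them with TMM factors. Priming and read position differ between genes, so levels are compared between libraries and never between genes. The primer carries no molecular identifier, so limits from counts cover counting error only. Under LPS, Acod1 had 1.58 to 26.4 normalized CPM in the Irg1-/- libraries and 3794 to 28063 in the WT libraries, whereas in unstimulated cells of both genotypes it had 5.82 to 11.9 and does not tell the genotypes apart. All 8 macrophage markers checked were detected. They summed to 3319 to 8096 normalized CPM in the WT LPS 24h libraries and to 5568 to 9833 in the libraries of the other groups. The part of this wider spread in comparisons with WT LPS 24h cells was not tested. T cell, B cell and mast cell markers summed to at most 1.70 normalized CPM. Dendritic cell markers (4 genes) summed to 0 to 9.99, and the 3 fibroblast or stroma markers (Col1a1, Col3a1 and Dcn) were found in all 24 libraries and summed to 65.0 to 146. Each library also has a label prefix, of which there are 4, taken here as its pool. All Unstim. libraries were in pool 4, the WT LPS libraries were spread over pools 1, 2 and 4, and the Irg1-/- LPS libraries were in pools 1, 2 and 3. For this reason values within a pool are given beside some of the values over all pools. In Irg1-/- cells the 3 h cultures were in pools 2 and 3 and the 24 h cultures in pool 1 alone, so pool and exposure time cannot be told apart between these 2 groups. Differences are log2 fold changes from edgeR's quasi-likelihood test over the 11878 genes tested, with adjusted p-values by the Benjamini-Hochberg method and a threshold of 0.05. SE stands for standard error, and leaving out a library means refitting without it.

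**Figure D1:**
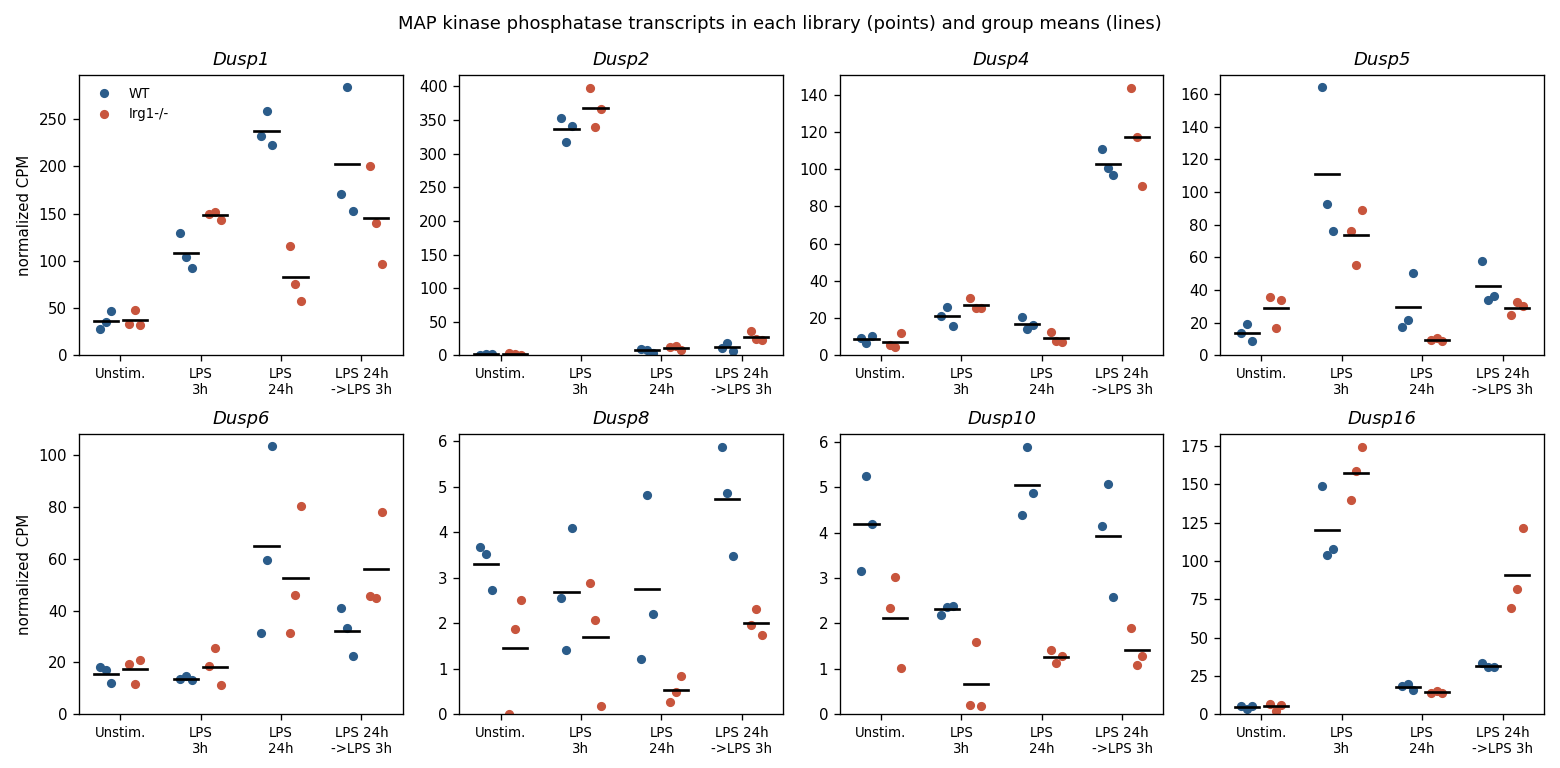
Normalized CPM (vertical axis, linear, a separate scale for each gene) of the 8 MAP kinase phosphatases in each treatment, with 1 point per library, WT in blue, Irg1-/- in red and a line at each group mean (n = 3). Dusp2 is at 317 to 397 after LPS 3h and at most at 36.9 in all other libraries, Dusp4 is highest after LPS 24h->LPS 3h (90.8 to 144), and Dusp8 and Dusp10 are at most at 5.90.

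After LPS 3h, 5 of the 8 phosphatases were higher than in Unstim. cells in WT BMDMs (Dusp1, Dusp2, Dusp4, Dusp5 and Dusp16) and 0 were lower, beside 32% of all genes tested that passed in either direction (15.8% higher, 16.3% lower). The same 5 genes were higher in Irg1-/- BMDMs and 0 were lower, beside 35.9% of all genes (17% higher, 18.9% lower). The median log2 fold change over the 8 members was 1.41 in WT and 1.59 in Irg1-/- cells, against medians of -0.18 and -0.20 over all genes tested. After LPS 24h, 6 members were higher than in Unstim. cells in WT (16.2% of all genes passed, 9.25% higher and 6.98% lower), while in Irg1-/- cells 4 were higher and 1, Dusp5, was lower (13.7% passed, 7.31% higher and 6.38% lower). The comparisons within a genotype share groups, so they are not independent of each other. No Irg1-/- LPS library was in the pool of the Unstim. libraries, so for Irg1-/- cells pool and LPS cannot be told apart in these comparisons. The WT value within pool 4 after LPS 3h, from 1 library against 3, was 1.37 for Dusp1, 8.49 for Dusp2, 0.88 for Dusp4, 2.51 for Dusp5 and 4.46 for Dusp16. After LPS 24h it was 2.63, 2.20, 0.92, 1.92 and 1.73 for these genes and 2.73 for Dusp6.

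**Figure D2:**
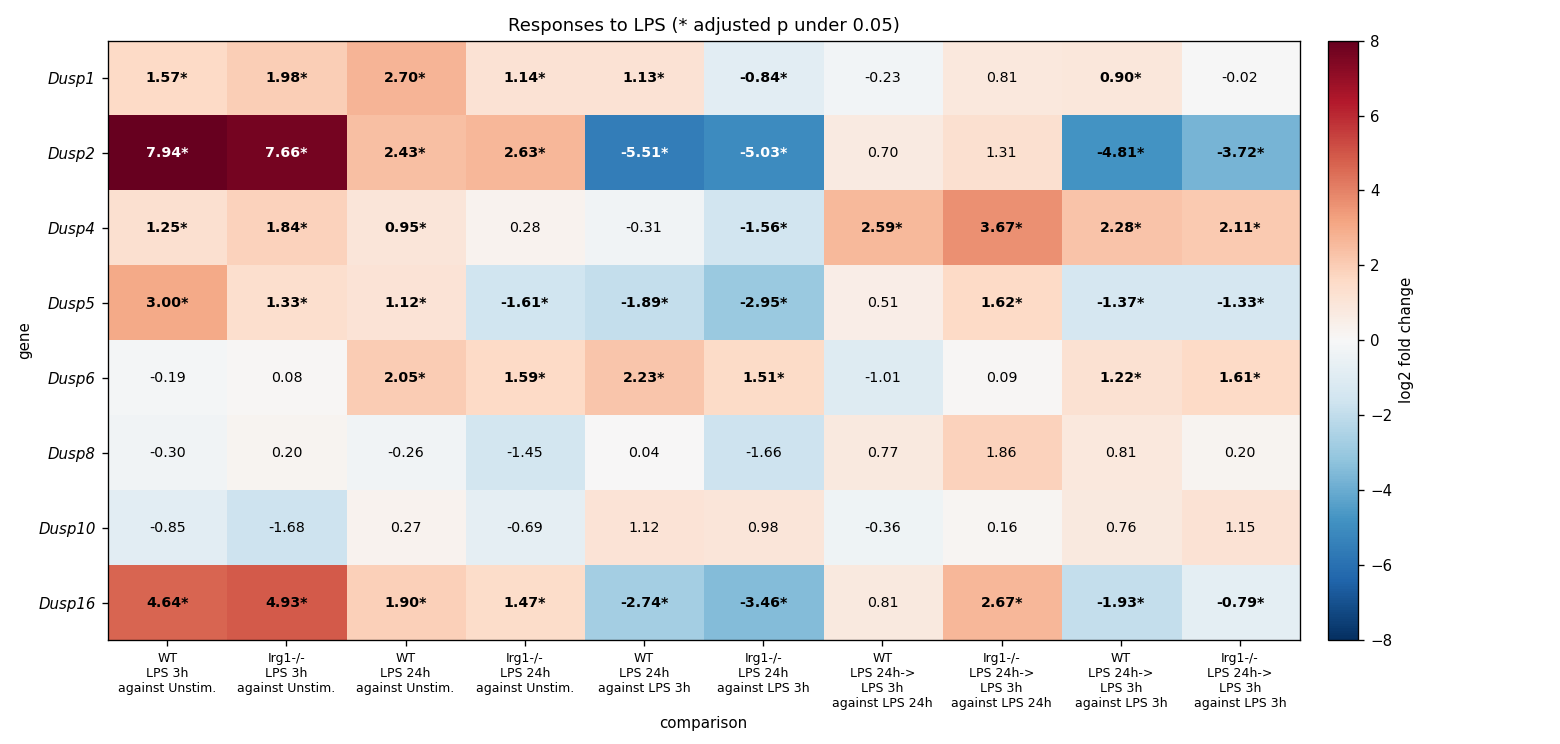
Log2 fold changes of the 8 genes (rows) in the 10 comparisons between treatments within a genotype (columns), coloured from blue (lower) to red (higher), with an asterisk for an adjusted p under 0.05. The values run from -5.51 (Dusp2, WT, LPS 24h against LPS 3h) to 7.94 (Dusp2, WT, LPS 3h against Unstim.), and Dusp8 and Dusp10 carry no asterisk.

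Dusp2 encodes a nuclear phosphatase of ERK and p38 that is abundant in activated leukocytes, and it had the largest response of the 8. In WT cells it had 0, 2.00 and 2.10 normalized CPM in the 3 Unstim. cultures, 353, 317 and 342 after LPS 3h, 9.50, 8.49 and 4.20 after LPS 24h, and 11.4, 18.2 and 6.46 in tolerized cells. The Irg1-/- cultures had 2.96, 2.07 and 0.856, then 397, 339 and 366, then 12.1, 13.6 and 8.07, and 36.9, 24.0 and 22.7. Every LPS 3h culture lay far above every culture of the other treatments, and restimulated cultures stayed far below LPS 3h cultures. The culture at 0 had no read, which allows up to 0.193 normalized CPM. Dusp2 was raised by LPS 3h, with a log2 fold change of 7.94 in WT (SE 0.66, adjusted p = 2.81e-11 by edgeR's quasi-likelihood test) and 7.66 in Irg1-/- cells (SE 0.66, adjusted p = 7.71e-11). By 24 h it was lower than after LPS 3h, with log2 fold changes of -5.51 in WT and -5.03 in Irg1-/- cells (edgeR adjusted p = 1.23e-08 and 2.77e-08), but still above Unstim. cells by 2.43 and 2.63 (adjusted p = 0.00203 and 0.00132). These last calls were lost in WT with only the groups compared (2.41, edgeR adjusted p = 0.0817), in Irg1-/- cells with the pool as a term (2.12, adjusted p = 0.0674), and in both with the replicate block and the pool together (2.02 and 2.29, adjusted p = 0.0508 and 0.126). The second exposure did not pass the threshold in either genotype, with a log2 fold change of 0.70 against LPS 24h in WT (edgeR adjusted p = 0.535) and 1.31 in Irg1-/- cells (adjusted p = 0.141, cultures not overlapping). The Irg1-/- value was past it without a filter on low counts (edgeR adjusted p = 0.00460) and with only the groups compared (1.34, adjusted p = 0.0104). Restimulated cells had 28.1-fold less Dusp2 than LPS 3h cells in WT and 13.2-fold less in Irg1-/- cells, log2 fold changes of -4.81 and -3.72 (edgeR adjusted p = 1.40e-07 and 3.24e-06). Within pools 1, 2 and 4 the WT difference was -4.93, -4.11 and -5.69, and within pool 2 the Irg1-/- difference was -3.42, each from 1 library against 1.

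Dusp1 encodes the nuclear phosphatase of p38 and JNK that restrains cytokine production in LPS-treated macrophages. In WT cells it had 27.8, 35.0 and 46.9 normalized CPM in Unstim. cultures, 129.6, 104 and 93.0 after LPS 3h, 232, 258 and 222 after LPS 24h, and 171, 284 and 153 in tolerized cells. The Irg1-/- cultures had 32.9, 48.4 and 32.0, then 149.8, 152 and 143, then 115, 75.6 and 57.8, and 201, 140.0 and 96.6. The WT mean was highest after LPS 24h, whereas Irg1-/- cultures after LPS 24h lay below those after LPS 3h. Dusp1 was raised by LPS 3h, with a log2 fold change of 1.57 in WT (SE 0.32, edgeR adjusted p = 2.34e-04) and 1.98 in Irg1-/- cells (SE 0.32, adjusted p = 1.24e-05). From 3 to 24 h it then rose in WT, with a log2 fold change of 1.13 (SE 0.31, edgeR adjusted p = 0.00654), and fell in Irg1-/- cells, with -0.84 (SE 0.31, adjusted p = 0.0364). The difference between these 2 responses was -1.96 (SE 0.44) and did not pass the threshold (edgeR adjusted p = 0.218, unadjusted p = 1.10e-04), whereas it did with DESeq2's Wald test (adjusted p = 0.0128) and with edgeR's test without a filter on low counts (adjusted p = 0.0108). Against Unstim. cells, Dusp1 was higher after LPS 24h by 2.70 in WT and 1.14 in Irg1-/- cells (edgeR adjusted p = 2.08e-07 and 0.0125). With the pool as a term both Irg1-/- calls were lost, with -0.47 from 3 to 24 h (edgeR adjusted p = 0.556) and 0.98 after LPS 24h against Unstim. cells (adjusted p = 0.134), and with block and pool together they were -0.37 and 1.20 (adjusted p = 0.692 and 0.140).

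Restimulation gave Dusp1 a log2 fold change of -0.23 against LPS 24h in WT and 0.81 in Irg1-/- cells, and neither passed the threshold (edgeR adjusted p = 0.799 and 0.154). Tolerized WT cells held more Dusp1 than LPS 3h cells, with a log2 fold change of 0.90 (SE 0.31, edgeR adjusted p = 0.0334), and in Irg1-/- cells the difference was -0.02 (adjusted p = 0.965). Within pools 1, 2 and 4 the WT difference was 0.40, 1.45 and 0.71. Some of these calls rested on single libraries. The WT difference between tolerized and LPS 3h cells was not past the threshold without WT LPS 3h replicate 2 (0.82) or replicate 3 (0.75) or without WT LPS 24h->LPS 3h replicate 2 (0.54), nor with DESeq2 size factors (0.81, edgeR adjusted p = 0.0525) or only the groups compared (0.86, adjusted p = 0.0883). Likewise, the WT rise from 3 to 24 h was not without WT LPS 3h replicate 3 (0.95, adjusted p = 0.0510). The Irg1-/- fall from 3 to 24 h was not past the threshold without LPS 24h replicate 2 (-0.85) or 3 (-0.68), nor was the rise from Unstim. to LPS 24h without Unstim. replicate 1 (1.02) or 3 (1.04) or LPS 24h replicate 1 (0.84).

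Dusp4 encodes a nuclear phosphatase of ERK, JNK and p38, and it was the member that rose most on the second exposure. In WT cells it had 9.60, 6.49 and 10.3 normalized CPM in Unstim. cultures, 21.3, 25.8 and 16.0 after LPS 3h, 20.5, 14.1 and 16.5 after LPS 24h, and 111, 100.5 and 96.7 in tolerized cells. Irg1-/- cells, in the same order, had 5.61, 4.52 and 12.0, then 30.8, 25.2 and 25.5, then 12.6, 7.85 and 7.31, and 144, 117 and 90.8. Every tolerized culture of both genotypes lay above every other library. Against LPS 24h, Dusp4 rose 6.03-fold in WT (log2 fold change 2.59, SE 0.34, edgeR adjusted p = 9.51e-06) and 12.7-fold in Irg1-/- cells (log2 fold change 3.67, SE 0.36, adjusted p = 1.82e-08). Within pools 1, 2 and 4 the WT rise was 2.43, 2.82 and 2.54, and within pool 1 the Irg1-/- rise was 3.50. The difference between the genotypes in this rise was 1.07 (SE 0.46, edgeR adjusted p = 0.487). Tolerized cells also exceeded LPS 3h cells, by 2.28 in WT and 2.11 in Irg1-/- cells (edgeR adjusted p = 6.64e-06 and 1.54e-05).

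The first exposure raised Dusp4 less, with log2 fold changes after LPS 3h of 1.25 in WT (SE 0.33, edgeR adjusted p = 0.00387) and 1.84 in Irg1-/- cells (SE 0.34, adjusted p = 7.31e-05). It fell again by 24 h in Irg1-/- cells, with -1.56 against LPS 3h (edgeR adjusted p = 4.67e-04), and its log2 fold change against Unstim. cells was then 0.28 (adjusted p = 0.674). In WT cells the change from 3 to 24 h was -0.31 (edgeR adjusted p = 0.496), and Dusp4 after LPS 24h was above Unstim. cells by 0.95 with an adjusted p of 0.0471. That last call did not hold when any 1 of the 6 libraries was left out (WT Unstim. replicates 1, 2 and 3 and WT LPS 24h replicates 1, 2 and 3), with values between 0.76 and 1.05 and edgeR adjusted p-values between 0.0601 and 0.209. It was also lost with only the groups compared (adjusted p = 0.0867) and with the pool as a term (0.79, adjusted p = 0.165), among other settings. Block and pool together ended the calls of Dusp4 after LPS 3h in WT (1.01, edgeR adjusted p = 0.0643) and Irg1-/- cells (1.41, adjusted p = 0.0954) and from 3 to 24 h in Irg1-/- cells (-1.38, adjusted p = 0.0981).

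Dusp5 encodes a nuclear phosphatase that acts on ERK alone. In WT cells it had 13.7, 19.3 and 8.58 normalized CPM in Unstim. cultures, 164, 92.3 and 75.9 after LPS 3h, 17.7, 21.8 and 50.2 after LPS 24h, and 57.9, 33.8 and 36.6 in tolerized cells. The values in Irg1-/- cells were 35.8, 17.0 and 34.1, then 76.0, 55.1 and 89.0, then 9.53, 10.4 and 8.62, and 24.6, 32.9 and 30.3. WT LPS 24h replicate 3, at 50.2, stood apart from the 2 other cultures of its group, and the 3 Irg1-/- LPS 24h cultures lay below all Irg1-/- Unstim. cultures. Dusp5 was raised by LPS 3h, with a log2 fold change of 3.00 in WT (SE 0.41, edgeR adjusted p = 5.10e-07) and 1.33 in Irg1-/- cells (SE 0.38, adjusted p = 0.00694), and the difference between these rises, -1.67 (SE 0.54), did not pass the threshold (adjusted p = 0.722). After LPS 24h it was above Unstim. cells in WT, by 1.12 (SE 0.38, edgeR adjusted p = 0.0432, cultures overlapping), and below them in Irg1-/- cells, with -1.61 (SE 0.39, adjusted p = 0.00363). The WT call was lost without WT Unstim. replicate 1 (1.10) or 3 (0.85) and without WT LPS 24h replicate 3 (0.46), and with only the groups compared (1.10, edgeR adjusted p = 0.107). Block and pool together ended the Irg1-/- calls after LPS 3h (1.76, edgeR adjusted p = 0.0875) and after LPS 24h (-1.59, adjusted p = 0.144).

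These 2 responses of Dusp5 differed by -2.73 (SE 0.55, edgeR adjusted p = 0.0165), the only difference between the genotypes in a response that passed the threshold in edgeR's quasi-likelihood test among the 8 genes and 5 responses compared. Of all genes tested, 0.21% passed in that comparison, 0.0253% higher and 0.185% lower. From 3 to 24 h Dusp5 fell in both genotypes, with log2 fold changes of -1.89 in WT and -2.95 in Irg1-/- cells (edgeR adjusted p = 3.63e-04 and 1.07e-06). The WT fall varied between pools, with -3.20, -2.07 and -0.59 within pools 1, 2 and 4, each from 1 library against 1. Restimulation raised it against LPS 24h in Irg1-/- cells by 1.62 (SE 0.39, edgeR adjusted p = 0.00834), and in WT cells the log2 fold change was 0.51 (adjusted p = 0.548) with 1.70, 0.63 and -0.46 within pools 1, 2 and 4. Tolerized cells held less Dusp5 than LPS 3h cells, with log2 fold changes of -1.37 in WT and -1.33 in Irg1-/- cells (edgeR adjusted p = 0.00784 and 0.00955), and the WT call was lost without WT LPS 3h replicate 1 (-1.02, adjusted p = 0.0718) and the Irg1-/- call with block and pool together (-1.59, adjusted p = 0.108).

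Dusp6 encodes the cytoplasmic ERK phosphatase and was the late responder of the set. In WT cells it had 18.2, 16.9 and 11.9 normalized CPM in Unstim. cultures, 13.5, 14.6 and 13.2 after LPS 3h, 31.2, 59.3 and 104 after LPS 24h, and 40.8, 33.3 and 22.4 in tolerized cells. The Irg1-/- cultures had 19.5, 11.7 and 20.8, then 18.4, 25.4 and 11.3, then 31.4, 45.9 and 80.3, and 45.8, 44.8 and 77.8. In both genotypes all LPS 24h cultures lay above all Unstim. and LPS 3h cultures, and the LPS 24h groups had the widest spread. After LPS 3h the log2 fold changes were -0.19 in WT and 0.08 in Irg1-/- cells (edgeR adjusted p = 0.767 and 0.903). After LPS 24h Dusp6 rose against Unstim. cells by 2.05 in WT (SE 0.40, edgeR adjusted p = 3.32e-04) and 1.59 in Irg1-/- cells (SE 0.40, adjusted p = 0.00506), and against LPS 3h by 2.23 and 1.51 (adjusted p = 9.06e-05 and 0.00358). The log2 fold change on restimulation was -1.01 in WT (SE 0.39, edgeR adjusted p = 0.162) and 0.09 in Irg1-/- cells (adjusted p = 0.959), and within WT pools 1, 2 and 4 it was 0.39, -0.83 and -2.20. Without WT LPS 24h replicate 1 the WT value was -1.35 and past the threshold (adjusted p = 0.0491).

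Tolerized cells held more Dusp6 than LPS 3h cells, by 1.22 in WT (edgeR adjusted p = 0.0238) and 1.61 in Irg1-/- cells (adjusted p = 0.00297). The WT call was lost without WT LPS 3h replicate 1 (1.16), 2 (1.22) or 3 (1.15) and without WT LPS 24h->LPS 3h replicate 1 (0.97) or 2 (1.16). The Irg1-/- rise from Unstim. to LPS 24h was not past the threshold without Unstim. replicate 2 (1.38) or LPS 24h replicate 3 (1.15), nor was the rise from 3 to 24 h without LPS 24h replicate 3 (1.03). With the pool as a term the Irg1-/- calls from 3 to 24 h (1.49, edgeR adjusted p = 0.164) and of tolerized against LPS 3h cells (1.59, adjusted p = 0.128) were lost. With block and pool together they were 1.30 and 1.42 (adjusted p = 0.294 and 0.223), and the Irg1-/- rise from Unstim. to LPS 24h was 1.51 (adjusted p = 0.229). Markers of neutrophils and their precursors (6 genes) moved with exposure time: their summed level was 66.3 to 125 normalized CPM in the Unstim. and LPS 3h libraries of both genotypes and 1.05 to 8.52 in those of LPS 24h and of tolerized cells. Their part in the differences between 24 h and earlier groups was not tested, and in bulk samples fewer cells of a type and less RNA per cell cannot be told apart.

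Dusp16 encodes a phosphatase of JNK and p38 that shuttles between cytoplasm and nucleus. In WT cells it had 5.09, 3.63 and 5.66 normalized CPM in Unstim. cultures, 149, 104 and 108 after LPS 3h, 18.4, 19.5 and 16.0 after LPS 24h, and 33.3, 30.6 and 30.7 in tolerized cells. The Irg1-/- cultures had 6.70, 2.26 and 6.16, then 139.5, 159 and 174, then 13.7, 15.4 and 13.7, and 69.0, 81.7 and 122. The 4 WT treatments did not overlap, and tolerized Irg1-/- cultures lay above tolerized WT cultures. Dusp16 was raised by LPS 3h, with a log2 fold change of 4.64 in WT (24.9-fold, SE 0.35, edgeR adjusted p = 3.45e-12) and 4.93 in Irg1-/- cells (30.5-fold, SE 0.36, adjusted p = 1.59e-12). From 3 to 24 h it fell, with log2 fold changes of -2.74 and -3.46 (edgeR adjusted p = 7.79e-08 and 1.09e-09) and was then still above Unstim. cells by 1.90 and 1.47 (adjusted p = 4.22e-05 and 0.00137). The last of these calls, in Irg1-/- cells, was lost with the pool as a term (1.14, edgeR adjusted p = 0.0898) and with block and pool together (0.96, adjusted p = 0.271). On restimulation it rose in Irg1-/- cells by 2.67 (6.36-fold, SE 0.32, edgeR adjusted p = 6.78e-07), whereas the WT log2 fold change of 0.81 (SE 0.31) did not pass the threshold (adjusted p = 0.146), although the cultures did not overlap. Within WT pools 1, 2 and 4 that value was 0.85, 0.65 and 0.93, and within Irg1-/- pool 1 it was 2.79.

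The difference between the genotypes in the second response of Dusp16 was 1.86 (SE 0.43), which did not pass the threshold with edgeR's quasi-likelihood test (adjusted p = 0.0984) and did with DESeq2's Wald test (adjusted p = 0.00385) and with edgeR's test without a filter on low counts (adjusted p = 0.0205). Of all genes tested, 0.00842% passed in that comparison. Tolerized cells held less Dusp16 than LPS 3h cells, with log2 fold changes of -1.93 in WT (edgeR adjusted p = 2.20e-05) and -0.79 in Irg1-/- cells (adjusted p = 0.0473). The second of these calls was lost without Irg1-/- LPS 3h replicate 2 (-0.83) or 3 (-0.74) and without Irg1-/- LPS 24h->LPS 3h replicate 1 (-0.66) or 2 (-0.75), and with the pool as a term (-0.84, edgeR adjusted p = 0.228), block and pool together (-0.79, adjusted p = 0.322) or no filter on low counts (-0.78, adjusted p = 0.0859).

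Dusp8 and Dusp10 encode phosphatases selective for JNK and p38, and both were near the limit of detection. Dusp8 had between 0 and 57 counts per library and 0 to 5.88 normalized CPM, and the Irg1-/- Unstim. culture at 0 allows up to 0.468. Dusp10 had between 1 and 86 counts per library and 0.176 to 5.90 normalized CPM. Neither gene passed the threshold in any of the 10 treatment comparisons. The log2 fold changes of Dusp8 lay between -1.66 (SE 0.86) and 1.86 (SE 0.84), both in Irg1-/- cells. Those of Dusp10 lay between -1.68 (SE 0.73, Irg1-/-, LPS 3h against Unstim., edgeR adjusted p = 0.0728) and 1.15 (SE 0.72), and DESeq2's Wald test called the first of these (-1.63, adjusted p = 0.0465). Dusp10 in the Irg1-/- LPS 3h cultures had 2, 10 and 1 counts. Without the culture of 10 counts (Irg1-/- LPS 3h replicate 2), the log2 fold change of Dusp10 after LPS 3h was -3.28, that from 3 to 24 h was 2.57 and that of tolerized against LPS 3h cells was 2.78, each past the threshold, and without Irg1-/- Unstim. replicate 3 the first of these was -2.01 and past it.

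Set side by side, the first and the second 3 h of LPS called different numbers of members. On restimulation 1 of 8 members, Dusp4, passed the threshold in WT cells, beside 3.99% of all genes tested (2.46% higher, 1.53% lower), and 3 of 8 passed in Irg1-/- cells (Dusp4, Dusp5 and Dusp16), beside 5.14% of all genes (3.44% higher, 1.7% lower). The median log2 fold change of the 8 members was 0.61 in WT and 1.47 in Irg1-/- cells, against -0.03 and -0.07 over all genes tested. Against LPS 3h, tolerized WT cells held more Dusp1, Dusp4 and Dusp6 and less Dusp2, Dusp5 and Dusp16 (25.5% of all genes passed, 12.4% higher and 13.1% lower). Tolerized Irg1-/- cells held more Dusp4 and Dusp6 and less Dusp2, Dusp5 and Dusp16 (27.2% passed, 13.1% higher and 14.1% lower). From 3 to 24 h of LPS, 2 members rose and 3 fell in WT (32.3% of all genes passed, 16.8% higher and 15.5% lower), and 1 rose and 5 fell in Irg1-/- cells (35% passed, 18.2% higher and 16.9% lower).

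**Figure D3:**
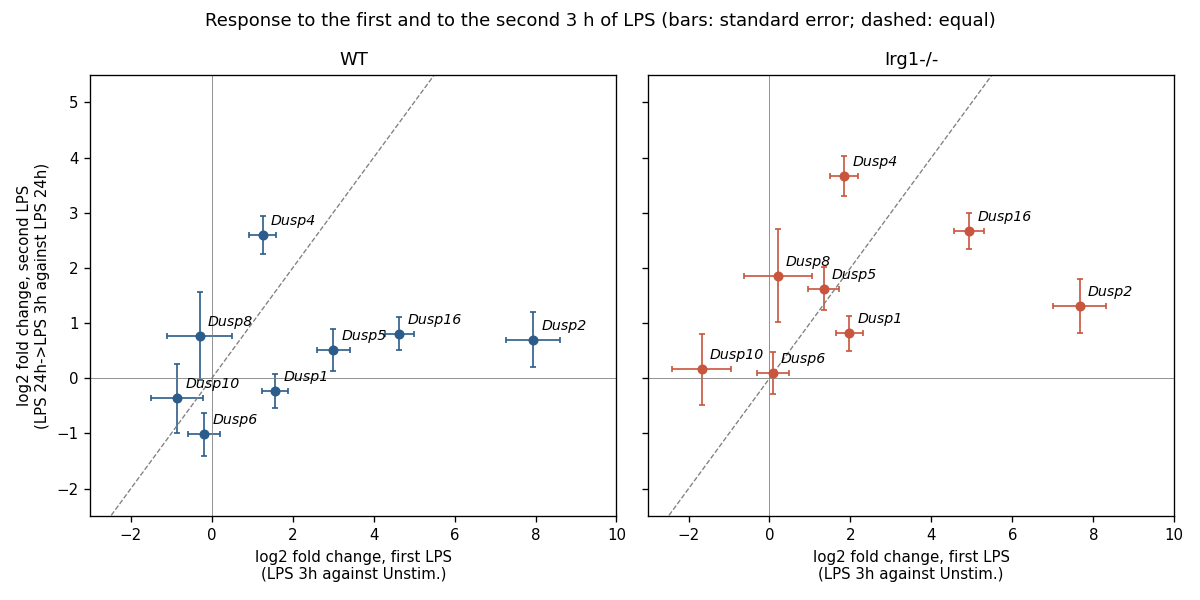
Log2 fold change after the second 3 h of LPS (LPS 24h->LPS 3h against LPS 24h, vertical) against that after the first (LPS 3h against Unstim., horizontal) for each of the 8 genes, with standard errors as bars and a dashed line where both are equal. Dusp4 lies above the line in both genotypes (1.25 and 2.59 in WT, 1.84 and 3.67 in Irg1-/- cells), and Dusp2 and Dusp16 lie far to the right of it. The weakly counted Dusp8 and Dusp10 also lie above it in both genotypes. Dusp5 does so in Irg1-/- cells, where Dusp6 lies close to the line.

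Irg1-/- and WT cells were then compared within each treatment. Because the WT mice were bought in and are not described as littermates, loss of Irg1 and the source of the mice cannot be told apart. Under LPS the genotypes also differed in their pools. In Unstim. cells and after LPS 3h, 0 of 8 members passed the threshold with edgeR's quasi-likelihood test and 0 with DESeq2's Wald test. Of all genes tested, 0.0421% passed it with edgeR's test in Unstim. cells (0.0337% higher, 0.00842% lower) and 0.00842% after LPS 3h. In each of these treatments 1 member had an unadjusted p under 0.05. Dusp5 had that p in Unstim. cells, where it was higher in Irg1-/- by 1.07 (SE 0.38, unadjusted p = 0.00881) with overlapping cultures. Dusp10 had it after LPS 3h, where the log2 fold change was -1.84 (SE 0.73, unadjusted p = 0.0166). After LPS 24h, 2 of 8 were lower in Irg1-/- cells, Dusp1 and Dusp5, and 0 were higher, beside 0.598% of all genes (0.101% higher, 0.497% lower), and 5 had an unadjusted p under 0.05. After LPS 24h->LPS 3h, 1 of 8, Dusp16, was higher in Irg1-/- cells, beside 0.118% of all genes (0.0253% higher, 0.0926% lower), and 4 had an unadjusted p under 0.05. All of these percentages are of genes past the adjusted threshold. The share of all genes with an unadjusted p under 0.05 was not counted, so the member counts at that p have no comparator. The median log2 fold change of the members was 0.07 without LPS, 0.25 at 3 h, -1.20 at 24 h and -0.14 in tolerized cells, against -0.03 to 0.01 over all genes tested.

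**Figure D4:**
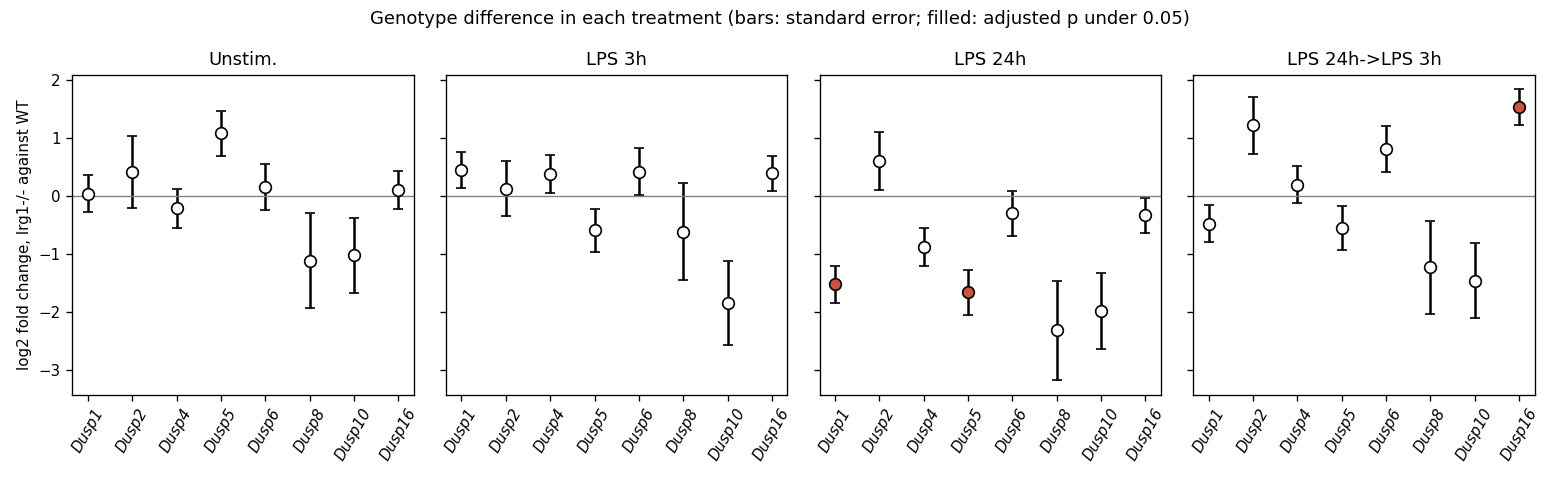
Log2 fold change of Irg1-/- against WT for each of the 8 genes in the 4 treatments, with standard errors as bars and filled points for an adjusted p under 0.05. The filled points are Dusp1 (-1.52) and Dusp5 (-1.65) after LPS 24h and Dusp16 (1.53) after LPS 24h->LPS 3h.

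Dusp1 was the first of the 2 members that were lower after LPS 24h. It had 82.9 ± 29.4 normalized CPM (SD, n = 3) in Irg1-/- and 237 ± 18.5 in WT cells, which is 2.86-fold lower, with a log2 fold change of -1.52 (SE 0.32, adjusted p = 0.0212 from edgeR). All 3 Irg1-/- cultures lay below all WT cultures. Within pool 1 the difference was -1.54, from 3 Irg1-/- libraries against 1 WT library, and with the pool as a term it was -1.45 and not past the threshold (edgeR adjusted p = 0.0808). The call was also lost without WT LPS 24h replicate 3 (-1.54, adjusted p = 0.0641) and without Irg1-/- LPS 24h replicate 2 (-1.45, adjusted p = 0.147) or 3 (-1.30, adjusted p = 0.163).

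Dusp5 after LPS 24h had 9.51 ± 0.877 normalized CPM (SD, n = 3) in Irg1-/- and 29.9 ± 17.7 in WT cells, 3.15-fold lower, with a log2 fold change of -1.65 (SE 0.39, adjusted p = 0.0371 from edgeR). The 3 Irg1-/- cultures lay below the lowest WT culture, and the WT group was spread from 17.7 to 50.2. Within pool 1 the difference was smaller, -0.88, from 3 libraries against 1, and with the pool as a term it was -1.83 and not past the threshold (edgeR adjusted p = 0.129). The call was lost without WT LPS 24h replicate 3 (-1.02, adjusted p = 0.537) and without Irg1-/- LPS 24h replicate 1 (-1.63), 2 (-1.72) or 3 (-1.58). The larger difference between the genotypes in the response from Unstim. to LPS 24h, -2.73, was -2.09 without WT LPS 24h replicate 3 (edgeR adjusted p = 0.101) and was not past the threshold with only the groups compared (-2.70, adjusted p = 0.105) or with block and pool together (-2.85, adjusted p = 0.0746). That difference was past the threshold in 4 of 12 fits that each left out 1 library, and lost it without WT Unstim. replicate 1 (-2.69) or 3 (-2.44), without Irg1-/- Unstim. replicate 1 (-2.57) or 3 (-2.56) and without Irg1-/- LPS 24h replicate 1 (-2.70), 2 (-2.79) or 3 (-2.65) as well.

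Dusp16 after LPS 24h->LPS 3h had 90.8 ± 27.5 normalized CPM (SD, n = 3) in Irg1-/- and 31.5 ± 1.55 in WT cells, 2.88-fold higher, with a log2 fold change of 1.53 (SE 0.31, adjusted p = 0.0304 from edgeR). All 3 Irg1-/- cultures, at 69.0 or more, lay above all WT cultures, at 33.3 or less. The difference was 1.58 within pool 1 (2 libraries against 1) and 1.17 within pool 2 (1 against 1), and with the pool as a term it was 1.40 and not past the threshold (edgeR adjusted p = 0.0881). The call was lost without WT LPS 24h->LPS 3h replicate 2 (1.52) or 3 (1.54) and without Irg1-/- LPS 24h->LPS 3h replicate 2 (1.62) or 3 (1.26, adjusted p = 0.217). With only the groups compared, none of the 3 calls between the genotypes held (edgeR adjusted p = 0.238 for Dusp1, 0.242 for Dusp5 and 0.147 for Dusp16). In the other treatments Dusp16 differed by 0.10 in Unstim. cells, 0.39 after LPS 3h and -0.33 after LPS 24h (edgeR adjusted p from 0.822 to 1).

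The remaining members gave no call between the genotypes. Dusp2 in tolerized cells was at 27.9 ± 7.83 normalized CPM (SD, n = 3) in Irg1-/- and 12.0 ± 5.91 in WT cells, with a log2 fold change of 1.21 (SE 0.49, edgeR adjusted p = 0.473) with cultures that did not overlap. It was past the threshold without a filter on low counts (adjusted p = 0.0450), and within pools 1 and 2 the difference was 1.02 and 1.01. Dusp4 after LPS 24h differed by -0.88 (SE 0.33, edgeR adjusted p = 0.287) and Dusp6 in tolerized cells by 0.80 (SE 0.39, adjusted p = 0.625). Dusp8 and Dusp10 had a negative log2 fold change in all 4 treatments, from -0.62 to -2.31 for Dusp8 and from -1.02 to -1.98 for Dusp10, at levels of at most 5.90 normalized CPM and with edgeR adjusted p-values of 0.189 or more. At these low counts, the cultures of the genotypes did not overlap for Dusp10 in any treatment, and for Dusp8 they overlapped only after LPS 3h. With the block on replicate number and the pool together, Dusp8 after LPS 3h turned to 0.41.

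The wider pathway was read from 7 lists of 67 genes, of which 56 could be tested. After LPS 3h, 16 of the 56 were higher and 11 lower in WT cells, beside 15.8% and 16.3% of all genes tested, and 14 were higher and 12 lower in Irg1-/- cells, beside 17% and 18.9%. The 26 Irg1-/- calls became 16 with the pool as a term and 16 with block and pool together. At the level of the kinases that start the cascade, Map3k5 (ASK1) had log2 fold changes of 3.89 in WT and 4.60 in Irg1-/- cells, and Tab2, an adaptor of TAK1, of 2.74 and 2.49. Map3k8 (TPL2), which links the LPS receptor to ERK, rose by 2.60 and 3.25, and Map3k4 (MEKK4), which acts towards p38 and JNK, fell by 2.61 and 2.32. Among the MAP kinase kinases, Map2k1 (MEK1) rose by 1.56 and 1.30 and Map2k4 (MKK4) by 2.05 and 1.88. Among the MAP kinases, Mapk6 (ERK3) rose by 1.94 and 2.39 and Mapk7 (ERK5) fell by 2.56 and 3.66. Downstream, Mapkapk2 (MK2), the kinase through which p38 stabilises cytokine mRNAs, rose by 3.43 and 3.28, and Mknk2, which phosphorylates eIF4E, fell by 3.10 and 3.26, as did the related Mknk1, by 2.30 and 2.00. Spred1, an inhibitor of ERK signalling, rose by 3.49 and 3.31. These named genes had edgeR adjusted p-values of at most 3.63e-04. Mapk14 (p38 alpha) rose in WT by 0.88 (edgeR adjusted p = 0.0185) and had a log2 fold change of 0.21 in Irg1-/- cells (adjusted p = 0.614), and Spred3 fell in WT by 2.65 (adjusted p = 0.0102) with -1.59 in Irg1-/- cells (adjusted p = 0.111). The WT fall of Spred3 (SE 0.79) was at low levels, with means of 4.72 normalized CPM in Unstim. cells and 0.736 after LPS 3h. Rps6ka5 (MSK1) rose by 2.55 and 1.39 (edgeR adjusted p = 1.02e-04 and 0.0198).

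**Figure D5:**
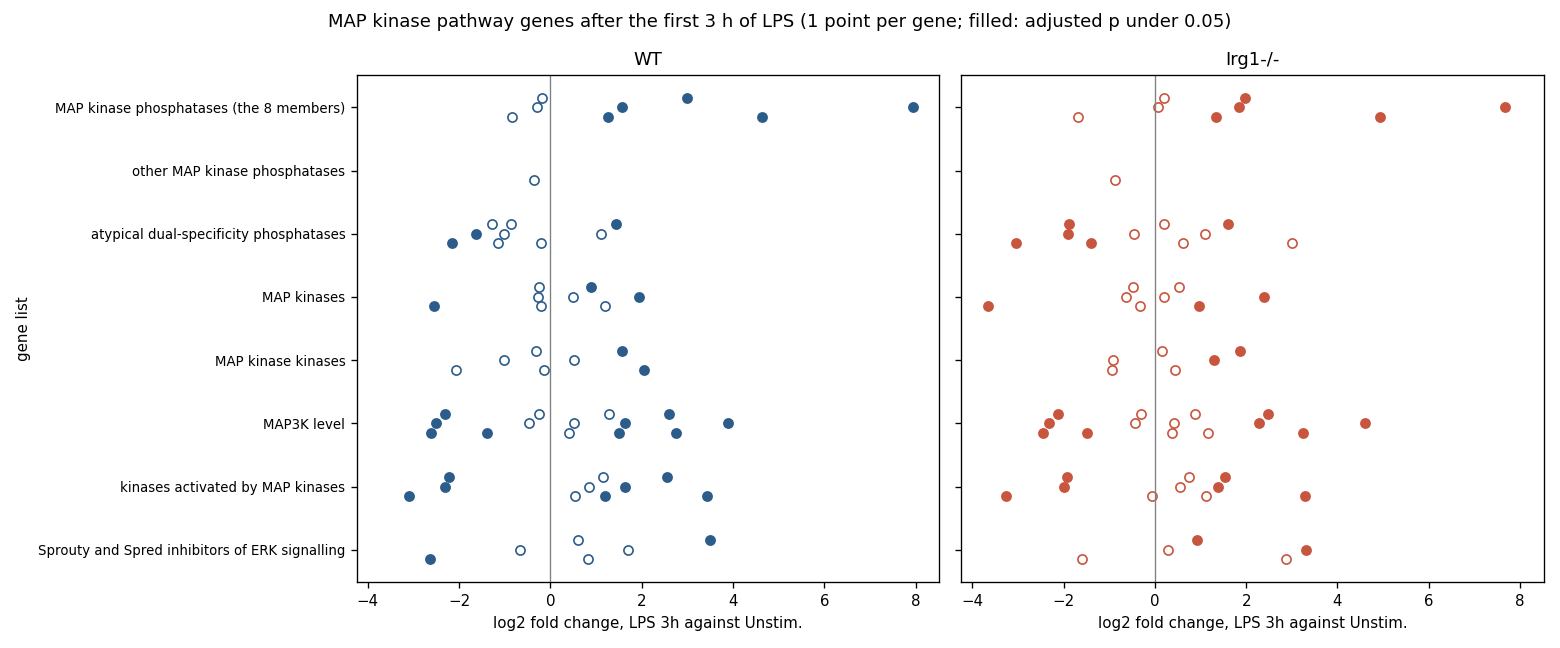
Log2 fold change after LPS 3h against Unstim. (horizontal) for the 8 MAP kinase phosphatases and the genes of the 7 other lists (rows), 1 point per gene, filled for an adjusted p under 0.05, with small vertical offsets for clarity. The 5 filled points of the 8 members all lie to the right of 0, from 1.25 to 7.94 in WT and from 1.33 to 7.66 in Irg1-/- cells, and the other lists hold filled points on both sides. Genes at 0 in every library of a group are not drawn (1 in WT, 2 in Irg1-/- cells).

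Of the phosphatases outside the 8, Dusp7 did not pass the threshold after LPS 3h in WT, with a log2 fold change of -0.37 (edgeR adjusted p = 0.527), nor in Irg1-/- cells, with -0.87. Dusp9 was too low to test. Of 10 atypical dual-specificity phosphatases tested, 2 were higher and 2 lower in WT and 1 was higher and 4 lower in Irg1-/- cells, beside 32% and 35.9% of all genes that passed in either direction. Dusp14 was listed at 0 in the 3 WT Unstim. cultures and at 3.97 to 5.47 normalized CPM after LPS 3h, and Dusp3, a phosphatase of ERK and JNK, fell in WT by 1.62 on the log2 scale (edgeR adjusted p = 5.91e-05). Dusp18 fell by 2.15 in WT and 3.04 in Irg1-/- cells (edgeR adjusted p = 0.00604 and 2.54e-04), from at most 9.61 normalized CPM. On restimulation, 4 of the 56 genes were higher and 1 was lower in each genotype, beside 3.99% of all genes in WT and 5.14% in Irg1-/- cells that passed in either direction. With only the groups compared, these 5 calls became 0 in WT and 8 in Irg1-/- cells. With 1 library left out they were as few as 2, without WT LPS 24h replicate 3 and without Irg1-/- LPS 24h replicate 2. Mapkapk2 rose by 1.39 in WT and 1.94 in Irg1-/- cells, Mapk6 by 1.19 and 1.13, Map3k6 by 3.15 and 2.60, and Map3k1 fell by 1.36 and 1.04 (edgeR adjusted p from 1.17e-04 to 0.0419). The Map3k6 rises (SE 0.76 and 0.71) started near the limit of detection, from LPS 24h means of 0.844 and 1.12 normalized CPM. Map3k5 rose in Irg1-/- cells by 2.26 (edgeR adjusted p = 4.35e-05). It did not pass the threshold in WT, where its mean was 10.6 normalized CPM after LPS 24h and 17.1 in tolerized cells. A call in 1 genotype alone is no test of a difference between the responses, and that difference was not tested for the pathway genes. Between the genotypes, 0 of 56 passed the threshold with edgeR's quasi-likelihood test over the filtered genes in any treatment. An unadjusted p under 0.05 was found for 5, 1, 6 and 4 in Unstim., LPS 3h, LPS 24h and tolerized cells, and the share of all genes at that p was not counted. DESeq2's Wald test called 1 after LPS 24h and 1 in tolerized cells, in both cases Spry2, an inhibitor of ERK signalling named here after its values were seen, with log2 fold changes of -2.16 (adjusted p = 0.0198) and -2.14 (adjusted p = 0.0453). Without a filter on low counts, edgeR's test also called Spry2 in both (-2.14 and -2.13, adjusted p = 0.00121 and 0.00277).

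The genes whose levels followed each member most closely were listed by Pearson's r of log2 normalized CPM over all 24 libraries. These libraries share their treatments and pools, so r mostly follows the treatments and is given as a description. Dusp16 was closest to Nfkbiz, which encodes an inducible IkappaB protein (r = 0.974), and to Cd40, a costimulatory receptor (r = 0.971), and Dusp2 was closest to Icam1, an adhesion molecule (r = 0.961), and to Spsb1 (r = 0.955). Dusp1 was closest to Tnfrsf1b, a TNF receptor (r = 0.928), and to Cebpb, a transcription factor (r = 0.925). Dusp5 was closest to Cdk6 (r = 0.920) and Prkcd (r = 0.904), Dusp4 to Csf3, the gene of G-CSF (r = 0.900), and Rapgef5 (r = 0.896), and Dusp6 to Dap3 (r = 0.876) and Trpm2 (r = 0.872). The values were lower for the weakly counted members, 0.730 for Dusp8 with Zbtb49 and 0.775 for Dusp10 with Sccpdh. Among the 8 members themselves, the highest r was 0.900, between Dusp2 and Dusp16, and the lowest was -0.48, between Dusp10 and Dusp16.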

How the data were processed

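The authors prepared 3′-end libraries with barcoded oligo-dT, pooled them and deposited raw counts of reads per gene for each library, without normalization. Per the submitters' notes and the study's methods, reads were aligned with STAR to mm10. The counting program, annotation and strand setting are not given in the sources used here. The table held 22165 genes and 5 summary lines, which made up 40.6% to 52.0% of each column and entered neither library sizes nor tests. All 24 columns were used, and 0 were left unused. Groups and culture numbers came from the sample labels, and the pool from a label prefix. Symbols were matched to GENCODE M21 with the version removed (21745 of 22165).

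Counts were normalized with TMM (edgeR 4.0.16, R 4.3.3), genes were kept by filterByExpr on the groups, and edgeR's quasi-likelihood test was applied to 19 comparisons in 1 model of the 8 groups over all 24 libraries, with Benjamini-Hochberg adjustment over the 11878 genes tested. SE is the log2 fold change divided by the square root of F. Log2 CPM for within-pool values and correlations used a prior count of 2. Single-gene exact permutation tests were not used, since 3 cultures against 3 cannot give a two-sided p under 0.1. Pathway genes are named by taking, in each list and comparison, up to 3 genes that passed the threshold with groups that did not overlap, ordered by the size of the change. For likeness, the 2 most similar genes of each member by correlation are named. The members and lists were chosen with earlier results of these data known. The procedure was run on simulated counts in which genes changed only in the Irg1-/- LPS 24h group and no pool effect was present. That run cannot show how the procedure behaves where pool and group go together, as they do here.

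Alternatives were DESeq2 1.42.0 (size factors, and its Wald test), no filter, a filter at a mean of 10 counts, fits to the compared groups alone, the replicate number as a block, a pool term, both of these, and each library left out in turn. The block nested in genotype was added after the data were seen. Figures were drawn with matplotlib 3.10.9 in Python 3.11.15.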

Additional observations from a re-analysis of the deposited data

Results flagged for a closer look

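Dusp5 differed between the genotypes in its response from Unstim. to LPS 24h. It was 29.9 normalized CPM after LPS 24h and 13.9 in Unstim. cells in WT, and 9.51 and 29.0 in Irg1-/- cells. The difference between the 2 log2 fold changes, Irg1-/- minus WT, was -2.73 (SE 0.55, adjusted p = 0.0165 from a contrast of the group terms in edgeR's quasi-likelihood test). With 1 library left out it lay between -3.02 and -2.09 and was past the threshold in 4 of 12 such fits. It was not past it with only the groups compared (-2.70, edgeR adjusted p = 0.105). All Unstim. libraries were in pool 4 and all Irg1-/- LPS 24h libraries in pool 1, so this response of Irg1-/- cells has no value within a pool, and with block and pool together the difference was -2.85 (edgeR adjusted p = 0.0746).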

How the results depend on the processing

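For each alternative, 152 log2 fold changes of single members were compared with those reported (80 with the block nested in genotype). The side of the threshold or the direction changed for 2 of them with DESeq2 size factors, 5 with DESeq2's Wald test, 3 with a mean of at least 10 counts, 6 without a filter, 9 with only the groups compared, 4 with the replicate block, 17 with the pool as a term, 28 with the block and the pool together and 3 with the nested block. The number of members past the threshold moved by over 1.5 times as follows. With DESeq2's Wald test, the number of members whose response differed between the genotypes was 2 for LPS 24h against Unstim., 1 for LPS 24h against LPS 3h and 1 for restimulation. Without a filter, it was 2 for Irg1-/- against WT in tolerized cells, 1 for the difference in LPS 24h against LPS 3h and 1 for that in restimulation. With only the groups compared, it was 3 for WT LPS 24h against Unstim., and 0 for Irg1-/- against WT after LPS 24h, for the same in tolerized cells and for the difference in LPS 24h against Unstim. With the pool as a term, it was 2 for Irg1-/- LPS 24h against Unstim., 3 for tolerized against LPS 3h Irg1-/- cells, and 0 between the genotypes after LPS 24h and in tolerized cells. With each library left out in turn, the numbers ran from 0 to 2 for Irg1-/- against WT after LPS 24h, from 0 to 1 for the same in tolerized cells, from 0 to 1 for the difference in LPS 24h against Unstim. and from 1 to 2 for WT restimulation. The cause was not tested.

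The replicate number was tried as a block, although nothing in the labels ties a number to a shared animal or day and in no comparison did all 3 pairs of same-numbered libraries deviate together (correlation over 0.1). The block moved no number of members past the threshold by over 1.5 times. Under it, Dusp5 in WT LPS 24h against Unstim. was 1.09 with an edgeR adjusted p of 0.0535. With the block and the pool together, the number of members was 3 for WT LPS 24h against Unstim., 3 for Irg1-/- LPS 3h against Unstim., 0 for Irg1-/- LPS 24h against Unstim., 3 for Irg1-/- LPS 24h against LPS 3h, 2 for tolerized against LPS 3h Irg1-/- cells, and 0 between the genotypes after LPS 24h, in tolerized cells and for the difference in LPS 24h against Unstim. The block nested in genotype was chosen after seeing the data.

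Directions that changed belonged to values not past the threshold. Dusp8 in WT LPS 24h against LPS 3h turned to -0.060 with DESeq2 size factors, -0.061 with the Wald test, -0.049 with a mean of at least 10 counts, -0.039 with the block, -0.040 with the nested block, -0.012 with the pool and -0.12 with block and pool. Dusp1 between the genotypes in Unstim. cells turned to -0.00057 with the block. Dusp10 in the difference in LPS 24h against LPS 3h turned to 0.044 with the block, 1.86 with the pool and 1.82 with both. With the pool and with block and pool, Dusp1 in tolerized against LPS 3h Irg1-/- cells turned to 0.18 and 0.28, Dusp8 there to -0.36 and -0.92, Dusp2 between the genotypes after LPS 3h to -0.20 and -0.15, and Dusp5 in the difference in tolerized against LPS 3h to -0.33 and -0.22. Dusp8 between the genotypes after LPS 3h turned to 0.41 with block and pool. With 1 library left out, directions not past the threshold also changed in Irg1-/- against WT, Unstim. (Dusp1 from -0.18 to 0.26, Dusp16 from -0.11 to 0.40, Dusp2 from -0.19 to 0.97, Dusp4 from -0.80 to 0.021, Dusp6 from -0.018 to 0.35), Irg1-/- tolerized against LPS 3h (Dusp1 from -0.36 to 0.18, Dusp8 from -0.33 to 0.80), the genotype difference in LPS 24h against LPS 3h (Dusp10 from -0.62 to 1.52) and the genotype difference in tolerized against LPS 3h (Dusp10 from -0.065 to 2.07, Dusp4 from -0.34 to 0.00065, Dusp5 from -0.33 to 0.34, Dusp8 from -1.09 to 0.034). They did so in Irg1-/- tolerized against LPS 24h (Dusp10 from -0.053 to 0.37, Dusp6 from -0.20 to 0.57), the genotype difference in LPS 3h against Unstim. (Dusp16 from -0.0015 to 0.51, Dusp2 from -0.84 to 0.32, Dusp6 from -0.015 to 0.52, Dusp8 from -0.12 to 1.24), the genotype difference in LPS 24h against Unstim. (Dusp2 from -0.33 to 0.83, Dusp6 from -0.89 to 0.11) and Irg1-/- against WT, LPS 24h (Dusp6 from -0.74 to 0.25). The same held in Irg1-/- LPS 3h against Unstim. (Dusp6 from -0.16 to 0.38, Dusp8 from -0.38 to 0.97), WT LPS 24h against LPS 3h (Dusp8 from -0.70 to 0.42), WT LPS 24h against Unstim. (Dusp8 from -0.95 to 0.070) and WT LPS 3h against Unstim. (Dusp8 from -0.71 to 0.059).

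Dusp8 had at most 57 reads per library and Dusp10 at most 86, with 3 cultures per group. The standard errors of their WT log2 fold changes after LPS 3h were 0.80 and 0.64. The smallest change that could be detected for these genes was not determined.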
